A study of Arabidopsis thaliana with 6 samples.

Results

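UDP-glycosyltransferases (UGTs) were taken as all protein-coding genes whose description in the deposited gene table holds the word UDP-glycosyltransferase, with AT5G54060 left out, which gave 63 of the 32998 genes. Of these, 51 carried a UGT family number in their name and 12 were described only as members of the superfamily and are named here by their locus. The 12 are counted as UGT genes by that description alone. Their sugar donors and acceptors are not stated here, and they can be other kinds of enzyme. The libraries came from complete 12-day-old seedlings grown on Murashige and Skoog medium with sucrose, 3 of *mdf-1* and 3 of wild type (WT). *mdf-1* is a T-DNA insertion line of *MDF*, which codes for a splicing factor, in the Columbia (Col-0) accession, and WT was Col-0. No treatment is stated for either genotype, and the comparison asks which transcript levels differ when *MDF* is disrupted. Each library is described as a separate biological replicate of seedlings.

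UGTs join a sugar from a UDP-sugar to a small acceptor molecule. In plants the acceptors include hormones, flavonoids, lignin precursors and foreign compounds, and the added sugar usually makes them more soluble, less reactive and ready for storage in the vacuole. The family grew by local duplication, so that relatives often lie side by side on a chromosome while using different acceptors.

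The libraries held 44738352 to 45418026 gene counts in *mdf-1* and 47175914 to 50088386 in WT, and 3 counts, the limit that a count of 0 allows, correspond to at most 6.71e-06% of a library, which covers counting error only. Levels are given as CPM, counts scaled to a library of 1000000, after scaling with trimmed mean of M-values (TMM) factors. *MDF* itself (AT5G16780) had 80.7, 82.9 and 78.6 CPM in *mdf-1* against 66.5, 63.2 and 64.7 CPM in WT, a log2 fold change of 0.32 ± 0.049 (SE). A count over a whole gene does not show whether an intact transcript crosses the insertion, so this gene does not check the labels. No marker of the 3 tissue lists was at 0 in *mdf-1*. The 7 root hair markers summed to 13.5 to 16.0 CPM in *mdf-1* against 51.0 to 71.6 CPM in WT. The 8 endodermis markers summed to 60.0 to 64.5 CPM in *mdf-1* against 138 to 154 CPM in WT, and the lowest count of any of them in *mdf-1* was 2. Much of this sum was SCR, with a mean of 39.5 CPM in *mdf-1* and 46.9 CPM in WT (log2 fold change -0.25 ± 0.049). The other endodermis markers had log2 fold changes of -1.85 to -2.63. All 15 of these root genes were lower in *mdf-1*. The 7 markers of photosynthetic tissue summed to 29446.9 to 37659.8 CPM in *mdf-1* and 29571.8 to 32271.6 CPM in WT, with 3 higher and 1 lower. In RNA of whole seedlings, fewer cells of a type and less RNA per cell cannot be told apart, and the part that tissue makeup has in the UGT values below was not tested.

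More UGT genes were lower than higher in *mdf-1*. Of the 63 genes, 57 had enough counts for the edgeR test, and 27 of these were lower (47.4%) and 14 higher (24.6%) in *mdf-1* at a Benjamini-Hochberg adjusted p below 0.05, while 16 were not called. Among all 22397 tested genes 33.9% were lower and 33.5% higher, 67.4% in all. The median log2 fold change of the tested UGT genes was -0.46, beside 0.01 for all tested genes. It stayed negative with each library left out, at -0.29 when replicate 3 of *mdf-1* was dropped and -0.30 when replicate 1 of WT was, and it was -0.17 over the 49 UGT genes that reached 10 counts in all libraries, a filter that removes genes nearly silent in 1 genotype. With total counts in place of TMM the median of all genes moved to -0.14, and 31 UGT genes were lower and 12 higher, beside 41.7% and 24.8% of all genes. The separation of the libraries followed the same order: in 29 genes all 3 *mdf-1* values lay below all 3 WT values and in 14 they lay above, while 37.0% and 36.3% of all tested genes did so, 73.2% together.

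The excess of lower over higher genes was wider among larger changes and among genes with few counts. Called and more than 2-fold lower in *mdf-1* were 20 UGT genes (35.1%), where 13.8% of all genes were, and 5 were more than 2-fold higher (8.77%), where 7.90% of all genes were. Among the 42 UGT genes with a mean of at least 100 counts, 17 were lower and 13 higher (40.5% and 31.0%, beside 32.7% and 36.5% of all genes at that level). Of the 15 tested genes below that mean, 10 were lower and 1 was higher, where 39.1% and 19.9% of all genes below it were. Genes nearly silent in *mdf-1* passed the filter on low counts through their WT counts, so these counts are a description.

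**Figure D1:**
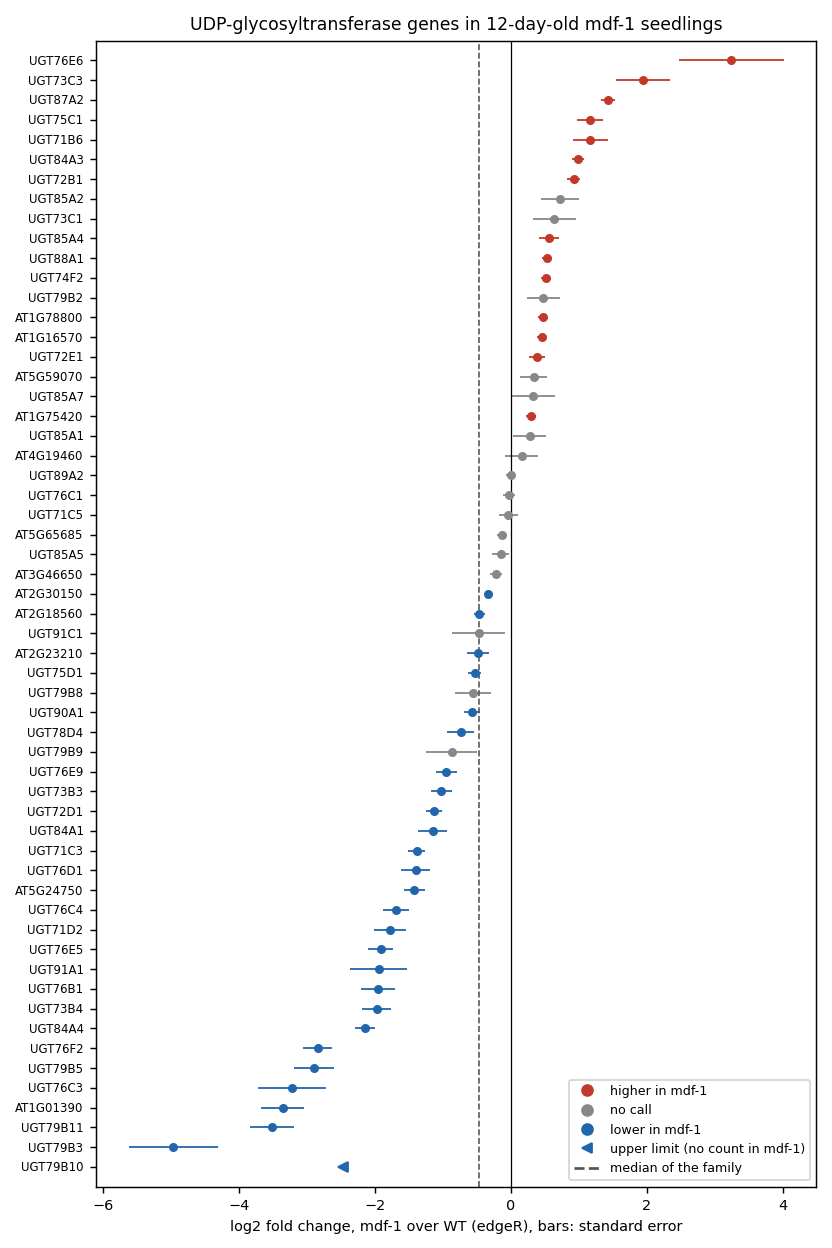
Log2 fold change (mdf-1 over WT) of the 57 tested UGT genes with its standard error, ordered by size, with red for higher, blue for lower and grey for no call. The called genes run from 3.25 (UGT76E6) down to -4.96 (UGT79B3, a fitted value resting on 5 counts in mdf-1), the dashed line is the median of -0.46, and the triangle marks the limit for UGT79B10, which had no count in mdf-1.

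The sum over all 63 genes did not show the excess of lower genes. UGT genes took 0.140 ± 0.012% of the *mdf-1* counts and 0.132 ± 0.00067% of the WT counts (SD, n = 3 each), a difference of 0.0086 percentage points that did not pass the test (exact two-sided permutation test, p = 0.4, where 0.1 is the smallest possible with 3 against 3). Dropping replicate 1 of *mdf-1* gave 0.0025 percentage points and dropping replicate 3 gave 0.015. With TMM-scaled library sizes it was 0.022 (same exact permutation test, p = 0.1). The *mdf-1* libraries themselves ran from 0.128% in replicate 3 to 0.153% in replicate 1, wider than the 0.131% to 0.132% of WT.

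Members that handle salicylic acid and related defence compounds split. UGT74F2, which forms salicylic acid glucosides, had 219, 222 and 194 CPM in *mdf-1* against 150, 154 and 140 CPM in WT. All 3 mutant values were above WT, by a log2 fold change of 0.52 ± 0.071 (adjusted p = 0.00030). UGT76B1, which glucosylates N-hydroxypipecolic acid, salicylic acid and isoleucic acid, had 15.3, 13.4 and 7.87 CPM in *mdf-1* against 50.3, 42.1 and 49.3 CPM in WT. It was lower in every mutant library, by -1.95 ± 0.25 (adjusted p = 0.00081). UGT71C3, an enzyme of methyl salicylate, had 3.16, 3.52 and 3.02 CPM in *mdf-1* against 7.86, 9.49 and 7.93 CPM in WT (-1.38 ± 0.12). UGT76D1, which acts on dihydroxybenzoic acids, averaged 1.29 ± 0.36 CPM in *mdf-1* and 3.40 ± 0.13 CPM in WT (SD, n = 3 each), a change of -1.40 ± 0.21. UGT89A2, another dihydroxybenzoate enzyme, averaged 20.4 ± 0.98 CPM in *mdf-1* and 20.4 ± 0.91 CPM in WT and was not called (0.00 ± 0.065, adjusted p = 0.98). Of the 5 members of this list, 3 were therefore lower and 1 higher (60% and 20%), beside 33.9% and 33.5% of all tested genes. The non-member UGT74F1 was lower too (-0.45 ± 0.14).

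Of the other tested hormone enzymes among the members, 1 was higher, 1 lower and 3 not called, where 33.5% of all tested genes were higher and 33.9% lower. Among non-members of the same lists, the abscisic acid genes UGT75B2 (-3.54 ± 0.33) and UGT1 (-0.67 ± 0.11) were lower. So were the auxin gene UGT74E2 (-0.86 ± 0.12) and the cytokinin gene UGT76C2 (-0.73 ± 0.11). Higher were the jasmonate gene UGT76E2 (1.76 ± 0.33), the abscisic acid gene UGT71B7 (0.63 ± 0.11) and the auxin gene UGT74D1 (0.30 ± 0.054). UGT71B6, which forms the glucose ester of abscisic acid, had 7.59, 7.51 and 4.22 CPM in *mdf-1* against 3.40, 2.26 and 2.92 CPM in WT. The groups did not overlap, although replicate 3 of *mdf-1* lay close to WT, and the log2 fold change was 1.17 ± 0.26 (adjusted p = 0.0045). UGT71C5, the other abscisic acid enzyme with enough counts, averaged 18.2 ± 3.7 CPM in *mdf-1* and 18.7 ± 1.1 CPM in WT (-0.04 ± 0.14, not called). UGT75D1, which glucosylates the auxin indole-3-butyric acid, had 58.7, 63.8 and 52.3 CPM in *mdf-1* against 78.4, 93.5 and 80.8 CPM in WT and was lower by -0.53 ± 0.092 (adjusted p = 0.0011). Both cytokinin enzymes among the members were not called: UGT76C1, an N-glucosyltransferase, averaged 14.9 ± 1.3 CPM in *mdf-1* and 15.1 ± 0.96 CPM in WT, and UGT85A1, an O-glucosyltransferase of zeatin, 44.8 ± 14 CPM in *mdf-1* and 36.9 ± 3.5 CPM in WT. UGT76E1, which acts on a hydroxylated jasmonate, was below the test's count limit with 15, 10 and 0 counts in *mdf-1* against 4, 3 and 6 counts in WT, and 78.4% of its 150-base windows also lie in an overlapping gene on the other strand.

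Phenylpropanoid enzymes also went both ways. Of the 3 hydroxycinnamate enzymes, which make glucose esters such as those of sinapic and p-coumaric acid, UGT84A3 had 60.3, 53.2 and 53.4 CPM in *mdf-1* against 25.3, 31.6 and 27.2 CPM in WT. It was higher in every mutant library, a log2 fold change of 0.99 ± 0.091 (adjusted p = 4.08e-05). UGT84A4 had 1.71, 1.63 and 1.47 CPM in *mdf-1* against 7.92, 6.09 and 7.22 CPM in WT, a change of -2.14 ± 0.15 (adjusted p = 1.05e-05). UGT84A1 had 1.31, 1.44 and 2.20 CPM in *mdf-1* against 4.02, 3.53 and 3.43 CPM in WT (-1.15 ± 0.21, adjusted p = 0.0016). For both, the highest mutant library was below the lowest WT library.

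Monolignols, the alcohols from which lignin is made, are the acceptors of UGT72B1, which also conjugates chlorinated pollutants, and the related aldehydes those of UGT72E1. UGT72B1 had 187, 156 and 142 CPM in *mdf-1* against 89.7, 84.4 and 82.0 CPM in WT, a log2 fold change of 0.92 ± 0.099 (adjusted p = 9.57e-05) with no overlap. UGT72E1 had 103, 108 and 85.7 CPM in *mdf-1* against 74.0, 66.7 and 86.7 CPM in WT. These groups overlapped, and its call (0.39 ± 0.12, adjusted p = 0.022) was lost without replicate 1 or 2 of *mdf-1* or replicate 1 or 2 of WT (adjusted p 0.063 to 0.078), with the replicate block (0.083) and with total counts (0.10). In the same pathway, the non-members UGT72E2 and UGT72E3 were both lower, by -1.05 ± 0.097 and -2.75 ± 0.30.

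Among the flavonoid enzymes UGT75C1, which adds a glucose to anthocyanins, had 11.5, 9.14 and 8.46 CPM in *mdf-1* against 3.42, 5.48 and 4.01 CPM in WT. It was 2.25-fold higher (log2 1.17 ± 0.19, adjusted p = 0.00093). The other tested members of this list were UGT79B2 and UGT79B3, which add rhamnose to anthocyanins. UGT79B3 was nearly silent in the mutant, with 2, 1 and 2 counts in *mdf-1* against 66, 29 and 104 counts in WT, and the summed WT level was 33.6 times that of *mdf-1* with a 95% counting interval of 14.1 to 105. UGT79B2 had 21.2, 17.8 and 10.9 CPM in *mdf-1* against 10.7, 13.0 and 12.0 CPM in WT. Replicate 3 of *mdf-1* lay within the WT range, and of the alternatives run only leaving out that library gave a call (0.71, adjusted p = 0.00037, against 0.48 and adjusted p = 0.12 with all 6 libraries). UGT79B6, a flavonol enzyme known from pollen, had 0 counts in all libraries.

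Lower members were frequent in the UGT79 and UGT76 subfamilies. In UGT79, 4 of 7 tested members were lower and none higher, beside 33.9% and 33.5% of all tested genes. All 4 had a mean under 100 counts, where 39.1% of all genes were lower and 19.9% higher. Those nearly silent in *mdf-1* passed the filter through their WT counts, so this count is a description. UGT79B10 had 0 counts in every *mdf-1* library against 23, 18 and 18 counts in WT, at least 5.54-fold lower when 3 counts per library stand for 0. Its neighbour UGT79B11 had 6, 8 and 9 counts in *mdf-1* against 100, 133 and 80 counts in WT (-3.51 ± 0.33). UGT79B5 had 7, 13 and 18 counts in *mdf-1* against 121, 98 and 119 counts in WT (-2.90 ± 0.30). No acceptor is stated here for these 3 genes, and all of them were far apart from WT in each library. The remaining tested members, UGT79B8 and UGT79B9, had lower means that did not pass the test (-0.55 ± 0.26 and -0.87 ± 0.37). UGT79B9 passed in DESeq2 (-0.88), with total counts (-1.02), and with replicate 1 (-1.32) or replicate 3 (-0.54) of *mdf-1* dropped, so its size rested on which mutant library was kept.

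In UGT76, 7 of 9 tested members were lower and 1 higher, beside the same 33.9% and 33.5%. Besides UGT76B1 and UGT76D1 these were UGT76C3, UGT76C4, UGT76E5, UGT76E9 and UGT76F2. UGT76C3, which lies near the cytokinin enzyme UGT76C1, had 5, 12 and 1 counts in *mdf-1* against 65, 64 and 74 counts in WT (-3.22 ± 0.50, and -4.21 without replicate 2 of *mdf-1*). UGT76F2 had 1.87, 1.51 and 2.72 CPM in *mdf-1* against 16.7, 12.8 and 14.4 CPM in WT, or 7.16-fold lower (log2 -2.84 ± 0.21, adjusted p = 2.16e-05). UGT76E5 had 41, 36 and 30 counts in *mdf-1* against 157, 166 and 157 counts in WT (-1.92 ± 0.18), and UGT76E9 115, 85 and 104 counts in *mdf-1* against 225, 244 and 224 counts in WT (-0.95 ± 0.15). Against this direction, UGT76E6 had 103, 76 and 14 counts in *mdf-1* against 6, 7 and 11 counts in WT. Its lowest mutant count, 14, was close to the highest WT count, 11, and the fitted log2 fold change of 3.25 ± 0.77 (adjusted p = 0.0083) became 3.72 without replicate 3 of *mdf-1*. In the RefSeq annotation, 53.8% of the 150-base windows of UGT76E6 also lie in an antisense RNA, AT3G00810, and it is not stated whether the counting used the strand, so its counts cannot be told apart from reads of that RNA.

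UGT73 genes, several of which respond to pathogens, oxidants and foreign chemicals, also parted. UGT73B4 had 24.0, 15.8 and 13.7 CPM in *mdf-1* against 73.8, 64.2 and 72.3 CPM in WT, a change of -1.97 ± 0.21 (adjusted p = 0.00038). UGT73B3 had 28.8, 24.6 and 19.8 CPM in *mdf-1* against 54.0, 41.4 and 52.9 CPM in WT (-1.02 ± 0.16, adjusted p = 0.0013). UGT73C3 went the other way, with 347, 340 and 139 counts in *mdf-1* against 88, 63 and 106 counts in WT (1.94 ± 0.40, adjusted p = 0.0047). Its lowest mutant library, replicate 3, was still above the highest WT library. UGT73C1 averaged 2.21 ± 0.76 CPM in *mdf-1* and 1.42 ± 0.46 CPM in WT and was not called (0.64 ± 0.32). Outside the members the 3 other UGT73B genes were lower (-0.41 to -0.69), UGT73C4 and UGT73C2 were higher (2.01 ± 0.36 and 1.89 ± 0.50), and UGT73C5 and UGT73C6 were not called (0.05 ± 0.16 and -0.52 ± 0.50). Some 3.30% of the 150-base windows of UGT73C3 occur in UGT73C4, and 7.71% of those of UGT73B4 lie in the overlapping gene UGT73B5, so these pairs can share reads.

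The remaining members with a UGT number included several abundant ones. UGT87A2, known for a role in flowering time, had 151, 134 and 114 CPM in *mdf-1* against 47.8, 52.0 and 47.5 CPM in WT. No *mdf-1* library came near the WT range, and the increase was 2.70-fold (log2 1.44 ± 0.10, adjusted p = 1.34e-05). UGT88A1 had 213, 233 and 242 CPM in *mdf-1* against 147, 169 and 158 CPM in WT (0.54 ± 0.074, adjusted p = 0.00032). UGT85A4 averaged 12.1 ± 2.3 CPM in *mdf-1* and 8.20 ± 0.71 CPM in WT (0.56 ± 0.15). UGT85A2 had 151, 122 and 73.4 CPM in *mdf-1* against 78.5, 70.6 and 59.9 CPM in WT, and with replicate 3 of *mdf-1* inside the WT range it was not called (0.73 ± 0.28, adjusted p = 0.065). It was called without that library (0.97, adjusted p = 0.0014), in DESeq2 (0.72, adjusted p = 0.033) and with the replicate block (0.68, adjusted p = 0.011). UGT85A5 and UGT85A7 were not called either, so that none of the 5 tested UGT85A genes was lower, where 33.9% of all tested genes were. Also lower were UGT71D2 (-1.78 ± 0.23), UGT91A1 (-1.94 ± 0.42, and -2.71 without replicate 3 of *mdf-1*), UGT72D1 (-1.13 ± 0.12), UGT90A1 (-0.57 ± 0.12) and UGT78D4 (-0.74 ± 0.20), and UGT91C1 was not called.

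Of the 12 members without a UGT number, 3 were higher, 5 lower and 4 not called. These shares of 25.0% higher and 41.7% lower stand beside 33.5% and 33.9% of all tested genes. The higher ones, AT1G78800, AT1G16570 and AT1G75420, had 5 to 15 different introns over their annotated transcripts. They rose by little (0.47 ± 0.065, 0.46 ± 0.067 and 0.30 ± 0.076), and AT1G75420 was no longer called with total-count scaling (0.16, adjusted p = 0.079). AT1G01390 fell furthest, with 6, 14 and 9 counts in *mdf-1* against 114, 138 and 102 counts in WT (-3.35 ± 0.32). AT5G24750 averaged 2.86 ± 0.52 CPM in *mdf-1* and 7.63 ± 0.89 CPM in WT (-1.42 ± 0.16). AT2G18560, AT2G23210 and AT2G30150 had log2 fold changes of -0.46, -0.48 and -0.33 and were called lower, but AT2G23210 lost its call without replicate 2 or 3 of *mdf-1* or replicate 1 or 2 of WT (adjusted p 0.050 to 0.11). The 4 without a call were AT3G46650, AT4G19460, AT5G59070 and AT5G65685, and all 150-base windows of AT5G59070 also lie in its antisense gene. The same holds for 40.9% of the windows of AT3G46650 and 14.0% of those of AT2G23210, and for 5.40% and 3.84% of those of UGT75C1 and UGT75D1, whose counts can include reads of the overlapping gene. Below the count limit were 6 numbered members, of which UGT71B8, the neighbour of UGT71B6, had 0 counts in all *mdf-1* libraries against 5, 9 and 13 counts in WT, at least 2.51-fold lower. UGT84B1, an auxin glucosyltransferase, had 0, 1 and 0 counts in *mdf-1* against 3, 4 and 2 counts in WT. UGT84B2 had 0 counts in *mdf-1* and at most 1 in WT, and UGT83A1 at most 2 counts in *mdf-1* and 0 in WT.

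**Figure D2:**
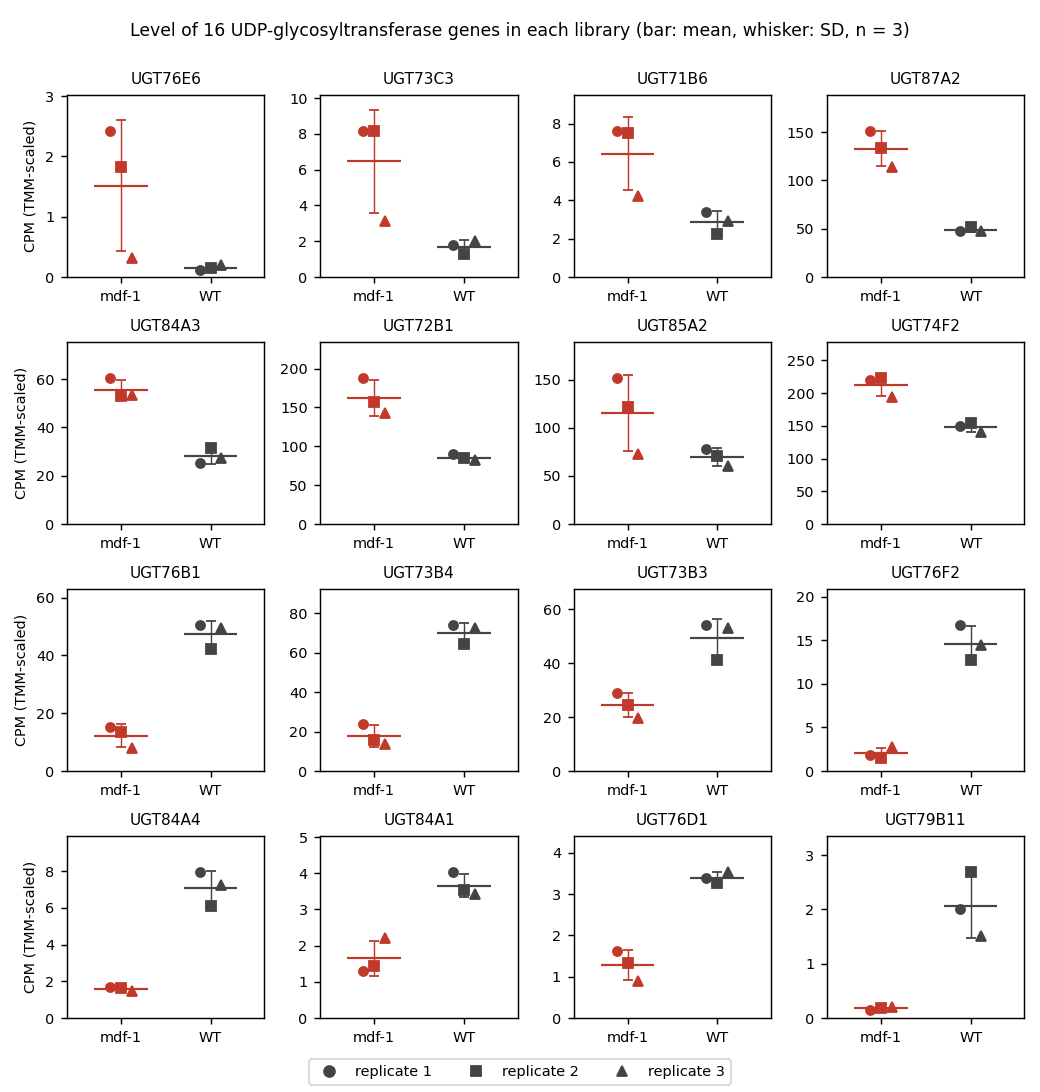
TMM-scaled CPM of 16 UGT genes in each library, with mdf-1 left of WT, a symbol for each replicate, the mean as a line and the SD as a whisker (n = 3). In UGT76E6, UGT73C3, UGT71B6 and UGT85A2 replicate 3 of mdf-1 is the library nearest to WT, while UGT84A4 and UGT76F2 are far below WT in all 3 mutant libraries.

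Replicates 1 and 3 of *mdf-1* lay at opposite ends over the family. Replicate 1 held the highest *mdf-1* value in 31 of the 57 tested genes, against 12 for replicate 2 and 14 for replicate 3, and over all tested genes it was highest in 35.7%. Replicate 3 held the lowest *mdf-1* value in 30 of the 57 tested genes, against 15 for replicate 1 and 12 for replicate 2, whereas over all tested genes it was lowest in 38.1%. In WT the lowest value was spread evenly (19, 20 and 18 genes for replicates 1, 2 and 3). Leaving out replicate 3 of *mdf-1* gave 18 higher and 28 lower UGT genes, beside 34.2% and 34.7% of all genes. The added calls were UGT85A1, UGT85A2, UGT79B2 and, from below the count limit, UGT76E1 as higher, and UGT79B9 and AT5G65685 as lower, while AT2G23210 was no longer called. Nothing in the labels sets these libraries apart.

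Levels of neighbouring members were compared with each other. Members no more than 10000 bases apart formed 13 arrays with 30 of the 63 genes. Pairs were formed from all genes of an array, also those not next to each other. Both genes of 18 such pairs were tested and had counts in both genotypes. The log2 ratio between the 2 genes was taken within each library and compared between genotypes. In 12 of the 18 pairs the 3 *mdf-1* ratios did not overlap the 3 WT ratios, which is p = 0.1 in an exact two-sided permutation test, the smallest possible with 3 against 3, and 0.15 after Benjamini-Hochberg adjustment over the 18 pairs. Among 17124 pairs of protein-coding genes next to each other within the same distance, 72.1% did not overlap, so the member pairs parted no more often than these. The protein-coding pairs were of consecutive genes only, so the sets of pairs are not fully alike. In 10 pairs, 8 of them without overlap, the ratio differed by more than 1 on the log2 scale (55.6%), where 34.3% of the protein-coding pairs did. Pairs within the arrays of 3 or 4 genes share genes and are not independent.

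On chromosome 4, UGT84A1, UGT84A3 and UGT84A4 lay on the minus strand within chr4:8848801-8858678, and the middle gene was the only one to rise. The log2 ratio of UGT84A3 to UGT84A4 was 5.03 ± 0.074 in *mdf-1* against 1.97 ± 0.35 in WT (SD, n = 3 each). UGT79B2 and UGT79B3, next to each other on the same chromosome, had a log2 ratio of 6.86 ± 0.54 in *mdf-1* and 3.25 ± 0.89 in WT, the largest shift of the 18 pairs at 3.62, where 0.1 CPM was added to each level. UGT87A2 and AT2G30150 on chromosome 2 had 2.58 ± 0.24 in *mdf-1* and 0.83 ± 0.050 in WT, with UGT87A2 higher and AT2G30150 slightly lower. In the array of UGT76C1, UGT76C4 and UGT76C3 on chromosome 5, the ratio of UGT76C1 to UGT76C3 was 6.10 ± 0.96 in *mdf-1* and 3.41 ± 0.10 in WT, and UGT76C1 itself was not called. UGT71C5 and UGT71C3 had 2.44 ± 0.27 in *mdf-1* and 1.14 ± 0.15 in WT. By contrast, the 6 pairs of the UGT85A array on chromosome 1 shifted by at most 0.82, and 4 of them overlapped between genotypes.

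**Figure D3:**
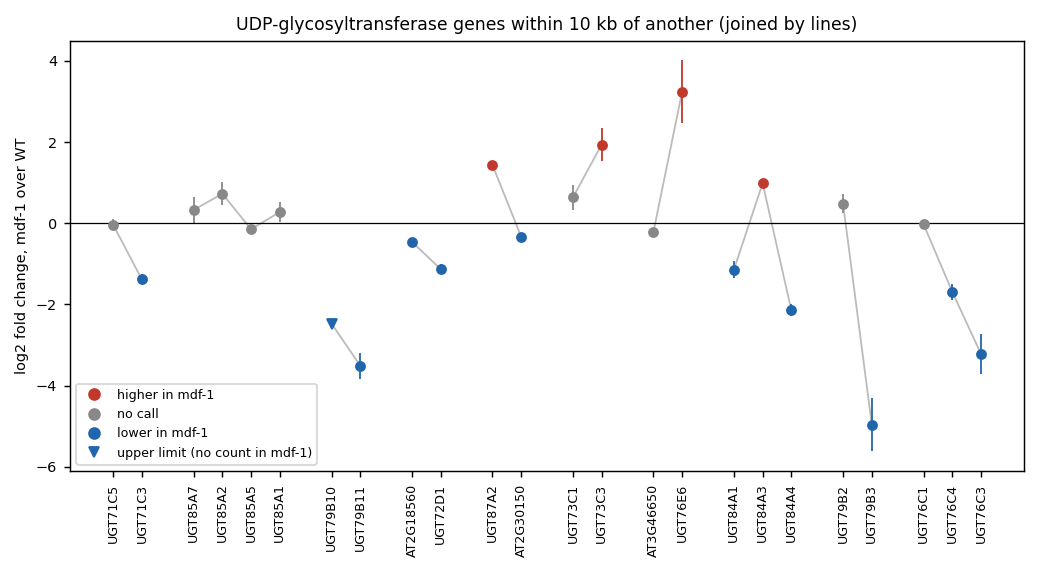
Log2 fold change (mdf-1 over WT, with standard error) of tested UGT genes that lie within 10 kb of another, in chromosome order and joined by lines. UGT84A3 is higher at 0.99 between UGT84A1 at -1.15 and UGT84A4 at -2.14, and UGT79B2 at 0.48 lies beside UGT79B3 at -4.96, while the UGT85A genes stay within -0.15 to 0.73.

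To show what lies in front of genes in arrays that parted, windows of 200 bases upstream of the annotated start are given. They cover 6 genes of 3 of these arrays. The windows come from the RefSeq TAIR10.1 genome, whose gene ends match the deposited TAIR10 table for all 63 members. They read 5′ to 3′ in the direction of the gene, and capitals mark TGACG (bound by TGA factors, on the other strand CGTCA) and TTGAC (the core of the W-box bound by WRKY factors, on the other strand GTCAA), which overlap where they read TTGACG.
UGT84A1 (chr4:8850517-8850716, minus strand): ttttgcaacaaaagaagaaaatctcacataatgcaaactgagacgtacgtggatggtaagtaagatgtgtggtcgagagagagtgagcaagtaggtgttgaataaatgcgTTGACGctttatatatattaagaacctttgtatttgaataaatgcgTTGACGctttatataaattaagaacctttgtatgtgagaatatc
UGT84A4 (chr4:8858679-8858878, minus strand): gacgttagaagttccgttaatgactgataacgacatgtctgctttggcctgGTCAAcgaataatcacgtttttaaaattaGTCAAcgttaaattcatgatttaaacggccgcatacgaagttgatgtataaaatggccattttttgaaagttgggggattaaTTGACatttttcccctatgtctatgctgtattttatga
UGT79B2 (chr4:13761604-13761803, minus strand): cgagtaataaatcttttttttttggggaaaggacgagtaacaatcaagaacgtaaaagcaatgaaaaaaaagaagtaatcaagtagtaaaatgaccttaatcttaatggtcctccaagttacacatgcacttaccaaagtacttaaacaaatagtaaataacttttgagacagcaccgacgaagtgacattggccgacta
UGT79B3 (chr4:13765065-13765264, minus strand): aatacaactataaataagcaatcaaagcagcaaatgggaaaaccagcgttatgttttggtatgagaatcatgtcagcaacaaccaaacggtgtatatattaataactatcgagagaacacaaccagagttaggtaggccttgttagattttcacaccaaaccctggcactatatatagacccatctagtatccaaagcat
UGT87A2 (chr2:12871784-12871983, plus strand): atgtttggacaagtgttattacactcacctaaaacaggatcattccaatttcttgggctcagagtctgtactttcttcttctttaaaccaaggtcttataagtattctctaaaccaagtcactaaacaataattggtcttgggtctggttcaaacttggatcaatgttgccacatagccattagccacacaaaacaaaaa
AT2G30150 (chr2:12874265-12874464, plus strand): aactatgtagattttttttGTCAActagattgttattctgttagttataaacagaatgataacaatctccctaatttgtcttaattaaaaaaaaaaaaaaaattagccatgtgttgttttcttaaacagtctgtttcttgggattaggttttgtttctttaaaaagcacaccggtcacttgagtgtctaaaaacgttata
UGT84A1 held 2 copies of TGACG, each overlapping a TTGAC, inside a stretch of 28 bases that occurs 2 times in the window. UGT84A4 held 3 copies of TTGAC and AT2G30150 held 1. UGT84A1 and UGT84A4 were both lower in *mdf-1*, and the window of UGT84A3, the gene of their array that rose, is not shown. The windows of UGT84A1 and UGT84A4 therefore do not compare a higher with a lower gene. In front of UGT79B2, UGT79B3 and UGT87A2 neither motif was present in these windows, so that UGT79B2 and UGT79B3 were alike in this respect although their levels parted. Over the whole family TGACG was in 11 of 63 windows (17.5%), where 15.7% of 27419 promoters of the same length held it, and TTGAC in 31 of 63 (49.2%), where 38.7% did. The G-box CACGTG was in 5 (7.94%), where 5.63% of promoters held it. A match is a string of letters and not a shown binding site.

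The order of levels shifted at its middle but not at its top. Per kilobase of gene length, UGT74F2 and UGT88A1 were the highest in both genotypes, at 121 ± 9.0 and 92.8 ± 6.0 CPM per kb in *mdf-1* and at 84.7 ± 4.0 and 63.8 ± 4.6 CPM per kb in WT (SD, n = 3). In *mdf-1* UGT72B1 (79.2 ± 11) and UGT87A2 (75.5 ± 10) followed, which did not differ beyond their spread, then UGT85A2 (59.5 ± 20) and UGT72E1 (49.6 ± 5.9). In WT the next were UGT75D1 (48.5 ± 4.6), UGT73B4 (41.9 ± 3.1), UGT72B1 (41.8 ± 1.9) and UGT72E1 (37.9 ± 5.1), where UGT73B4, UGT72B1 and UGT72E1 did not differ beyond their SD. UGT73B4 and UGT76B1, in the WT top 10 with 41.9 and 27.3 CPM per kb, were at 10.7 ± 3.3 and 7.06 ± 2.2 CPM per kb in *mdf-1* and no longer among the 10 highest.

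Intron number, which the choice of genes did not use, separated the calls to some degree. Introns were counted as the different introns over all annotated transcripts of a gene, so alternative transcripts can raise the number. Of the 63 genes, 30 had no intron, 20 had 1 and 13 had at least 2 by this count. Among the intronless ones 14 of 26 tested were lower and 5 higher (53.8% and 19.2%), beside 40.2% and 26.2% of all intronless protein-coding genes. With 1 intron 9 of 19 were lower and 4 higher (47.4% and 21.1%, beside 32.2% and 35.2%). With 2 or more introns 4 of 12 were lower and 5 higher (33.3% and 41.7%, beside 33.8% and 35.1%). In this class AT1G16570, AT1G78800 and AT1G75420 among the higher genes and AT5G24750 among the lower ones carry no UGT number. Intron number and kind of member are therefore mixed in these shares. Intronless genes thus had the highest share of lower calls both among UGT genes and among protein-coding genes at large, and with 12 to 26 UGT genes a class these shares are a description.

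**Figure D4:**
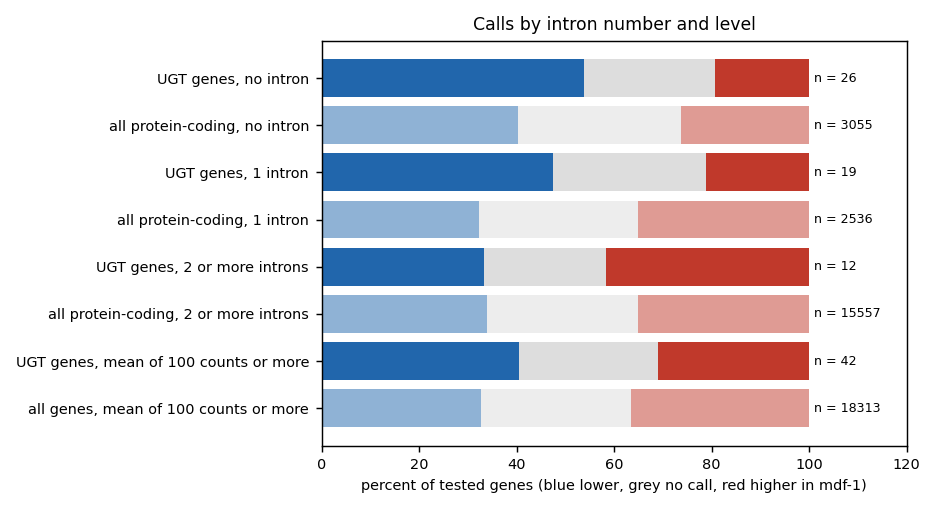
Percent of tested genes lower (blue), without call (grey) and higher (red) in mdf-1, for UGT genes (full colour) and the comparison genes (pale) by number of introns and for a mean of at least 100 counts. Intronless UGT genes were lower in 53.8% and higher in 19.2% of cases, and those with 2 or more introns in 33.3% and 41.7%.

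Genes that supply or regulate UGTs gave a mixed picture too. Of 24 enzymes that make the UDP-sugars used as donors, 13 were lower and 5 higher in *mdf-1* (54.2% and 20.8%), beside 33.9% and 33.5% of all tested genes. The largest changes were in the sucrose synthases SUS4 (-2.77 ± 0.18) and SUS1 (0.92 ± 0.075), the UDP-glucose dehydrogenase UGD4 (-1.79 ± 0.066) and the UDP-xylose synthase UXS6 (-1.77 ± 0.11). A list of 11 genes held regulators of detoxification and of mitochondrial retrograde signalling, and the oxidase gene AOX1A, which is no regulator and was not called. Of these 11, 5 were higher and 2 lower (45.5% and 18.2%), all by less than 0.5 on the log2 scale. Among them were TGA5 (0.49 ± 0.065), TGA6 (0.39 ± 0.067), their partner SCL14 (-0.39 ± 0.053) and NAC032 (0.35 ± 0.11). UGT genes with a number whose descriptions use other words, and which are therefore no members, showed 23 lower and 16 higher of 51 tested (45.1% and 31.4%), with a median of -0.20.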

How the data were processed

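Gene counts came from a table in which the authors deposited unnormalized read counts of 32998 genes in each library, made from paired reads with NEBNext Ultra libraries. Per the labels and the submitters' processing notes, fastp, HISAT2, featureCounts and the TAIR10 genome were used. Versions, strand setting and treatment of reads shared between genes are not given in the sources used here. Gene length in bases is the deposited value. The table also holds 12 further columns of per-library values (FPKM and values belonging to the authors' comparison) and the authors' own comparison of genotypes, which were not used.

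Counts were tested with edgeR 4.0.16 (filterByExpr, TMM, glmQLFit with robust estimation, glmQLFTest) in R 4.3.3 with genotype as the only term. Adjusted p values are Benjamini-Hochberg over 22397 genes, called below 0.05, and log2 fold changes are *mdf-1* over WT with a standard error from the F statistic. limma 3.58.1 and DESeq2 1.42.0 were loaded, the latter as an alternative. The steps were tested on simulated counts. Annotation, shared 150-base windows and motifs used Python 3.11.15 with pandas 2.3.3 and numpy 2.4.6, and figures matplotlib 3.10.9. Of the deposited genes 32548 were matched to TAIR10.1 by locus.

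The members and all lists were chosen with earlier results of these data known. Named were up to 12 called members per direction with a mean of at least 100 counts and no overlap, members of the role lists, the 10 with the highest level per length and neighbours of these. Members outside this rule are named to account for all 63, after their values were seen. Protein sequences were not used here, and 1 upstream sequence is not reported here. Alternatives were other scalings, filters and thresholds, DESeq2, a replicate block, protein-coding genes only, and each library left out.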

Additional observations from a re-analysis of the deposited data

How the results depend on the processing

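The counts of higher (14) and lower (27) genes moved by less than 1.5 times under each of the 15 alternatives, to between 12 and 18 and between 21 and 31. Leaving out each library gave 13 to 18 higher and 26 to 29 lower genes, and a median log2 fold change of -0.39 to -0.29. The median of -0.46 was -0.60 with total counts and -0.17 with at least 10 counts in every library. Of 2 alternatives chosen after seeing the data, the 41 tested members without overlap or a shared 150-base window gave 8 higher and 20 lower genes, and the 45 with a UGT number gave a median of -0.55.

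The share of counts was 0.0025 to 0.015 percentage points higher in *mdf-1* with each library left out, and 0.022 with TMM-scaled library sizes (exact permutation p = 0.1, the smallest possible).

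Replicate numbers are shared by the genotypes, and whether they pair the samples is not stated. Same-numbered libraries correlated at 0.046, -0.0021 and 0.086 in their deviations from the group means. Libraries with different numbers correlated at -0.095 to 0.052. With 3 libraries per genotype these values cannot settle whether the samples are paired. With the replicate block 15 genes were higher and 28 lower, with a median of -0.46.

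Of the named genes, those that changed sign had values near 0 and no call on either side. UGT89A2 was -0.0019 with RLE scaling, -0.049 with upper-quartile scaling, -0.14 with total counts, -0.0026 with DESeq2 and -0.019 when 10 counts in all libraries were required. Leaving out single libraries gave -0.037 to 0.039 for UGT89A2, -0.091 to 0.052 for UGT76C1 and -0.19 to 0.10 for UGT71C5. With UGT79B10, which had no count in *mdf-1*, set at its limit, the family's median was still -0.46. Whether the counting used the strand was not stated.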
